A study of Mus musculus with 15 samples.

Results

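The genes described here are 9 mouse genes known from regenerating intestinal epithelium or as targets of the transcriptional coactivator YAP: Emp1, Clu, Anxa1, Anxa3, Anxa8, Ctgf, Cyr61, Ankrd1 and Msln. They were taken as every non-control array probe whose gene name is one of these symbols or, for Ctgf and Cyr61, the newer symbols Ccn2 and Ccn1. The rule found 17 probes for the 9 genes, among 56605 non-control probes, and none of the 17 was lost to an outlier mark. Of the 9 genes, 8 were measured and tested among 22012 genes. Ankrd1, which had 1 probe, was not well above background on any of the 15 arrays.

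Gene expression was profiled with 1-colour Agilent arrays in total RNA from mucosa scraped off the last 30 mm of the descending colon of female Balb/cJ mice, 1 mouse per array and 5 mice per group. Water mice drank plain water according to the design text, although the labels name their compound a vehicle control, so it is not known here whether they were gavaged. The mice of all groups were 8 weeks old at the start. DSS vehicle mice received 4% dextran sodium sulfate, an agent that injures the colonic epithelium, together with the filgotinib vehicle. The DSS was given in the drinking water in 3 cycles of 4 days, separated by 3 days of washout. DSS filgotinib mice received the same DSS and 30 mg/kg filgotinib, an inhibitor that prefers the kinase JAK1, by gavage once a day. The comparisons ask what chronic DSS did to these genes and what filgotinib did in DSS mice.

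YAP and its relative TAZ, the product of Wwtr1, move into the nucleus when the kinases of the Hippo pathway are inactive, and act there through the DNA-binding TEAD proteins. After injury, the intestinal epithelium passes through a transient state with features of the fetal gut, in which YAP activity is high and genes such as Ly6a, Clu and several annexins are expressed. Ctgf, Cyr61 and Ankrd1 are widely used readouts of YAP, but fibroblasts, endothelium and muscle express them too.

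Each level below is a normalized log2 signal, the log2 of the background-subtracted signal minus the 75th percentile of its array, so that 0 is the level of that percentile. Levels of different probes are not compared. Calls rest on an adjusted p under 0.05 in a limma fit over all 15 arrays, and "rose" and "fell" are used only for called genes. The share of probes well above background ran from 58.0% to 62.1% in water, from 52.97% to 58.6% in DSS vehicle and from 50.2% to 58.3% in filgotinib arrays, and no spot was saturated. The 75th percentile of the signal was 684 to 813 in water, 570.1 to 667 in DSS vehicle and 552 to 663 in filgotinib arrays; the part of this difference in the results was not tested. The arrays lay on 6 slides scanned on 4 days, and only slides 2 and 4 held more than 1 group. All 11 epithelial markers, among them Epcam, Vil1 and Muc2, were well above background on all arrays. Their summed level, in multiples of the 75th percentile, ran from 1939.8 to 2223 in water, from 2431 to 2663 in DSS vehicle and from 2178 to 2537 in DSS filgotinib mice.

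In DSS vehicle against water mice, 3 of the 8 measured genes rose, Emp1, Anxa1 and Anxa3, and none fell, also at an unadjusted p under 0.05 in limma (4 higher, 0 lower). The median log2 fold change was 0.60 over the 8 genes and 0.05 over all genes, and 19.2% of all genes were called in this comparison, 10.8% as higher. In DSS filgotinib against DSS vehicle mice, Emp1 fell and the other 7 genes did not pass the test, where 11.3% of all genes were called, 4.53% as lower. In DSS filgotinib against water mice, Anxa1 rose and the others did not pass, where 9.83% of all genes were called, 6.42% as higher. Both DSS comparisons against water share the water mice, and both comparisons of DSS vehicle share those mice. In whole mucosa, fewer cells of a type and less RNA per cell cannot be told apart.

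**Figure D1:**
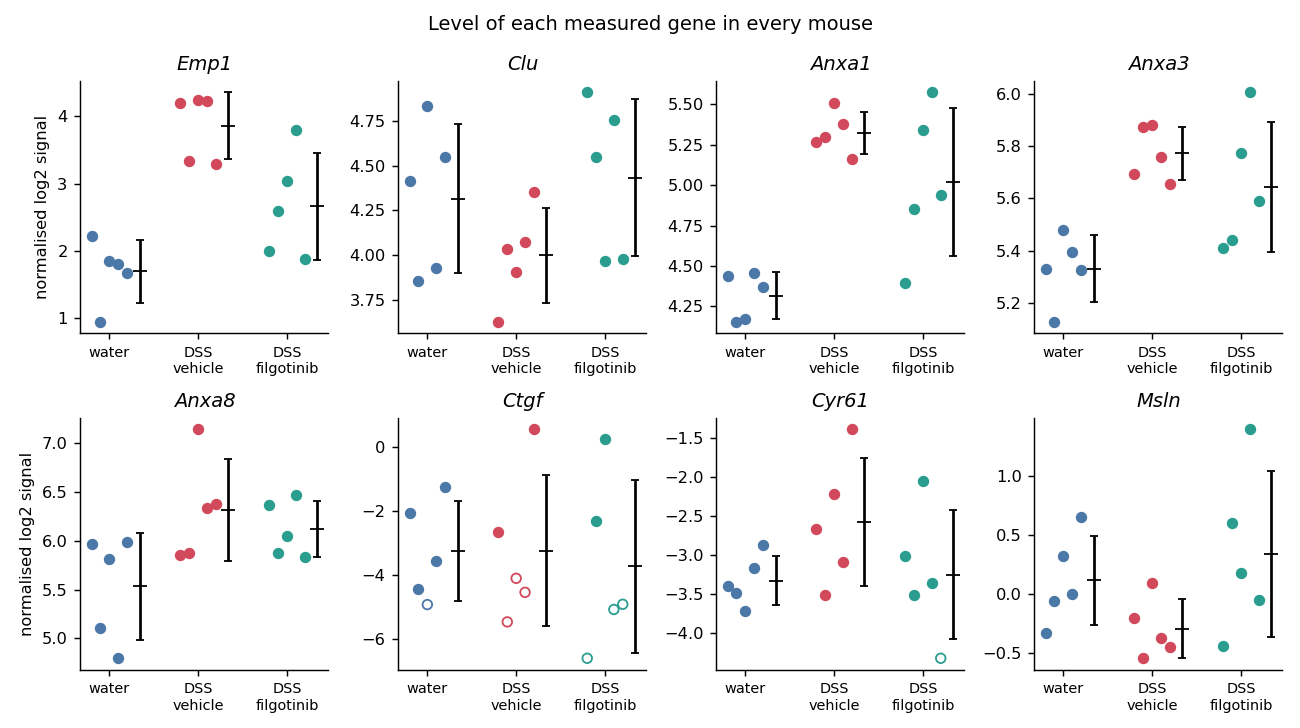
Normalized log2 signal (vertical axis, own scale for each gene) of the 8 measured genes in each of the 15 mice, by group; open circles mark arrays on which the probe was not well above background, and the bars show the mean and SD of 5 mice. The water and DSS vehicle mice separate for Emp1, Anxa1 and Anxa3, and the DSS filgotinib mice spread across both ranges, with mouse 4 above all DSS vehicle mice for Anxa1 and Anxa3; Ctgf spreads over several log2 units within each group.

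Emp1 encodes epithelial membrane protein 1, a small membrane protein of the PMP22 family. Its 1 probe lies at chr6:135333061-135333120 on the plus strand of mm9, the build of the array files; no annotation of that build was used here, so the exon under it was not looked up. The 5 water mice had levels of 2.22, 0.95, 1.85, 1.80 and 1.67, and the DSS vehicle mice 4.20, 3.33, 4.24, 4.22 and 3.30. Every DSS vehicle mouse was above every water mouse. Emp1 rose 4.47-fold (log2 fold change 2.16 ± 0.35 SE, adjusted p = 0.00139, n = 5 per group, limma). This was the largest change among the 8 genes in any of the 3 comparisons. With each slide as a fixed block the estimate was 1.57 with an adjusted p of 0.378, and 84 genes were called in all; the same 1.57 separated the DSS vehicle mouse from the 2 water mice on slide 4, the only slide that holds both groups. On the arrays of scan day 1 alone it was 2.25 (adjusted p = 0.0372).

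The DSS filgotinib mice had Emp1 levels of 2.00, 2.59, 3.04, 3.80 and 1.88. Of these 5 mice, 2 lay within the range of the water mice, 1 within that of the DSS vehicle mice and 2 between the ranges. Emp1 was 2.29-fold lower than in DSS vehicle mice (log2 fold change -1.20 ± 0.35 SE, adjusted p = 0.0439, limma), with 4 of 5 filgotinib mice below all DSS vehicle mice. Against water the difference was 0.96 ± 0.35 (adjusted p = 0.0915, limma). It ran from 0.68 to 1.16 with 1 mouse left out and from -0.04 to 1.00 under the other settings, and was never called.

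The fall under filgotinib was close to the threshold. On slide 2, which held 3 DSS vehicle and 2 filgotinib mice, the difference was -1.61, and with slides as a fixed block its adjusted p was 0.128. Leaving out 1 mouse at a time gave log2 fold changes from -1.48 to -1.001, and the call was lost in 9 of 15 cases. The adjusted p was then 0.051 without water mouse 3, 0.0569 without water mouse 4 and 0.0581 without water mouse 5. It was 0.103, 0.0746 and 0.0878 without DSS vehicle mice 1, 3 and 4, and 0.0929, 0.0859 and 0.109 without filgotinib mice 1, 2 and 5.

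**Figure D2:**
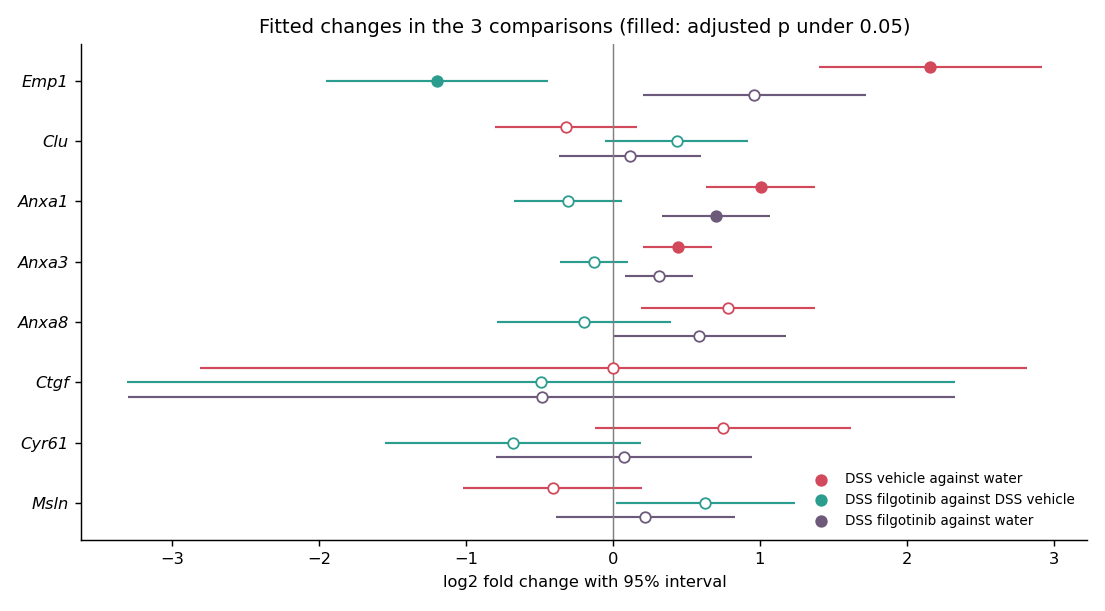
Fitted log2 fold change (horizontal axis) with its 95% interval for the 8 measured genes (rows) in the 3 comparisons (colours); filled points have an adjusted p under 0.05. Emp1, Anxa1 and Anxa3 are filled for DSS vehicle against water, Emp1 for DSS filgotinib against DSS vehicle (-1.20) and Anxa1 for DSS filgotinib against water (0.70).

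The RefSeq table of GRCm38.p6 lists promoter windows for 5 of the 9 genes. The 250 bases before the start are shown for Emp1 and Anxa1, which had the smallest adjusted p-values of the 8, and for Cyr61, a gene on which YAP is known to act. Capitals mark matches, on either strand, to the TEAD motif GGAATG, the AP-1 motif TGANTCA and the STAT motif TTCNNNGAA. AP-1 proteins often bind beside TEADs, and STAT proteins act below the JAK kinases. The windows are chr6:135362681-135362930 (plus strand) for the first of the Emp1 starts, chr19:20390672-20390921 (minus strand) for Anxa1 and chr3:145649986-145650235 (minus strand) for Cyr61.
Emp1: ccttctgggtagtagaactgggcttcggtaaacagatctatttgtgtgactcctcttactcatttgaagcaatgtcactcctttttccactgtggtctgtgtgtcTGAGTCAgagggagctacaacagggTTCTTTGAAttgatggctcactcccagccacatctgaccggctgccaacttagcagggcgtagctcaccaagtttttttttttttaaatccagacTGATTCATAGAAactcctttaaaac
Anxa1: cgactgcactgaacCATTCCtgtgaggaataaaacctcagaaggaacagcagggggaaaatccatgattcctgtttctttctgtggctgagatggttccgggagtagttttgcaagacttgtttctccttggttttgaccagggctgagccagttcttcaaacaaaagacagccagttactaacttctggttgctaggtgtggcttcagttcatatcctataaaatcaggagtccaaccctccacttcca
Cyr61: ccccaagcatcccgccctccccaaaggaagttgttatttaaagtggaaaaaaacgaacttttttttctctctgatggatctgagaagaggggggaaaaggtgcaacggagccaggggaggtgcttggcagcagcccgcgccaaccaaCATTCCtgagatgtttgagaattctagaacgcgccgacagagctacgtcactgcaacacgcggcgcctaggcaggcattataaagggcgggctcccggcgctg

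The Emp1 window holds 2 AP-1 matches, which begin 145 and 25 bases before the start, and 2 STAT matches, which begin 120 and 22 bases before it; the pair nearest the start overlaps. At least 2 AP-1 matches occur in 0.338% and at least 2 STAT matches in 0.317% of the 32851 windows of all genes. The windows of Anxa1 and Cyr61 hold 1 TEAD match each, beginning 236 and 103 bases before the start, and that of Ankrd1 holds 2. The TEAD motif is in 12.6%, the AP-1 motif in 6.75% and the STAT motif in 7.02% of all windows. No match to the 3 motifs lies in the window of Anxa8 or of the other Emp1 start. The motifs were chosen with the values of these genes known, and a match is a description of letters, not of binding.

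Anxa1, Anxa3 and Anxa8 encode annexins, proteins that bind membrane phospholipids when calcium is present. Annexin A1 is released during inflammation and acts through formyl peptide receptors such as the product of Fpr2. The brightest Anxa1 probe, at chr19:20447938-20447997 on the minus strand of mm9, had levels of 4.44, 4.16, 4.17, 4.45 and 4.37 in the water mice and 5.27, 5.30, 5.51, 5.38 and 5.16 in the DSS vehicle mice. The groups did not overlap, and the spread within each was small (SD 0.14 and 0.13). Anxa1 rose 2.01-fold in DSS vehicle mice (log2 fold change 1.00 ± 0.17 SE, adjusted p = 0.00174, limma). On slide 4 the difference was 1.03; with slides as a fixed block its adjusted p was 0.156, and on scan day 1 alone the change was 0.92 (adjusted p = 0.0572).

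In the filgotinib mice Anxa1 had levels of 4.39, 4.85, 5.34, 5.57 and 4.94. Mouse 1 lay within the water range, mouse 3 within the DSS vehicle range, mouse 4 above it and mice 2 and 5 between the ranges. The SD was 0.46, wider than in the other groups. Anxa1 was 1.63-fold higher than in water mice (log2 fold change 0.70 ± 0.17 SE, adjusted p = 0.0248, limma), in 4 of 5 mice above all water mice. The call was lost without water mouse 2 (adjusted p = 0.0581), without water mouse 5 (0.0543) and without filgotinib mouse 5 (0.0537). No slide holds both groups; with slides as a fixed block the change was 0.38 (adjusted p = 0.731) and on scan day 1 alone 0.59 (adjusted p = 0.154). The difference from DSS vehicle mice was -0.30 (95% interval -0.67 to 0.07, adjusted p = 0.267, limma).

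Anxa1 had 2 other probes well above background, which also rose in DSS vehicle mice, by 0.80 and 0.98 on the log2 scale (adjusted p = 0.00419 and 0.031 over all probes, limma). In DSS filgotinib against water mice these 2 probes gave 0.49 and 0.23 (adjusted p = 0.0654 and 0.646) and were not called. The call for Anxa1 in that comparison therefore rests on the brightest probe, and the mean of the 3 probes gave 0.48 (adjusted p = 0.0955).

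Anxa3 had levels of 5.33, 5.13, 5.48, 5.39 and 5.32 in the water mice and 5.69, 5.87, 5.88, 5.76 and 5.66 in the DSS vehicle mice, at chr5:97274784-97274843 on the plus strand of mm9. The groups did not overlap, as for Emp1 and Anxa1; 9.84% of all genes were higher in DSS vehicle mice with no overlap. Anxa3 rose 1.36-fold (log2 fold change 0.44 ± 0.11 SE, adjusted p = 0.0127, limma). The adjusted p was 0.0589 with arrays scaled to a common median, 0.275 with slides as a fixed block and 0.125 on scan day 1 alone, with changes of 0.40, 0.47 and 0.42. Its other 4 probes were higher by 0.32 to 0.60, and 2 of the 4 were called.

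The filgotinib mice had Anxa3 levels of 5.41, 5.44, 5.77, 6.005 and 5.59. Mice 1 and 2 lay within the water range and mouse 4 above all DSS vehicle mice. Neither the difference from DSS vehicle mice (-0.13, 95% interval -0.36 to 0.10, adjusted p = 0.468, limma) nor that from water mice (0.31, 95% interval 0.08 to 0.54, adjusted p = 0.0785) passed the test. The other 4 probes gave differences from DSS vehicle mice of -0.10, -0.33, -0.44 and -0.46, none called (lowest adjusted p = 0.0644 over all probes, limma), and the mean of the 5 probes gave -0.29 (adjusted p = 0.0618).

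Anxa8, at chr14:34913661-34913720 on the plus strand of mm9, gave the water group 5.97, 5.11, 5.81, 4.80 and 5.98, the DSS vehicle group 5.86, 5.87, 7.14, 6.33 and 6.37, and the filgotinib group 6.37, 5.87, 6.05, 6.47 and 5.84. The groups overlapped, with 3 of 5 DSS vehicle mice above all water mice. The difference of 0.78 ± 0.28 between DSS vehicle and water mice did not pass the test (adjusted p = 0.0603, limma). It passed without water mouse 1 (adjusted p = 0.0485), and it was -0.02 on slide 4. Filgotinib against DSS vehicle gave -0.19 (95% interval -0.78 to 0.39).

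Clu encodes clusterin, a secreted chaperone that marks a stem cell state of the injured mouse intestine. Its levels, at chr14:66600325-66600382 on the plus strand of mm9, were 4.41, 3.86, 4.83, 3.93 and 4.55 on water, 3.63, 4.03, 3.90, 4.08 and 4.36 on DSS with vehicle, and 4.91, 4.55, 3.96, 4.76 and 3.98 on DSS with filgotinib. The 3 groups overlapped. Clu passed no test: the difference was -0.32 between DSS vehicle and water mice (95% interval -0.80 to 0.17, adjusted p = 0.345, limma) and 0.43 between filgotinib and DSS vehicle mice (95% interval -0.05 to 0.92, adjusted p = 0.227). Its other probe was not well above background on any array.

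Msln encodes mesothelin, a surface glycoprotein of mesothelium that is also found in fetal-like gut epithelium. Its levels, at chr17:25885569-25885628 on the minus strand of mm9, ran from -0.33 to 0.65 on water, from -0.54 to 0.10 on DSS with vehicle, and from -0.44 to 1.39 on DSS with filgotinib. The highest value was that of filgotinib mouse 4. Its difference of 0.63 between filgotinib and DSS vehicle mice (95% interval 0.02 to 1.24) did not pass after adjustment (adjusted p = 0.162, limma), and it was 0.37 without filgotinib mouse 4. Against water, DSS vehicle mice differed by -0.41 (95% interval -1.02 to 0.20, adjusted p = 0.329), with 3 of 5 below all water mice, and by -1.03 on slide 4, and the difference was -0.28 without water mouse 5. Of 6 mesothelial markers looked for, only Upk1b and Wt1 were measured; Upk3b, Lrrn4 and Gpm6a were not well above background. The summed level of the 2 was between 0.0907 and 0.186 in every mouse.

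Ctgf and Cyr61 encode secreted CCN proteins of the extracellular matrix and are direct targets of YAP with TEADs. Ctgf, at chr10:24318281-24318340 on the plus strand of mm9, was well above background on 8 of 15 arrays, in 4 water, 2 DSS vehicle and 2 filgotinib mice. The water group read -2.05, -4.43, -4.92, -3.57 and -1.25, the DSS vehicle group -2.65, -5.46, -4.10, -4.54 and 0.55, and the filgotinib group -6.59, -2.32, 0.25, -5.07 and -4.91. The highest mouse of a group was 12.7-fold above the lowest in water, 64.2-fold in DSS vehicle and 115-fold in filgotinib mice, with lowest values that are background readings. The group means were close in this spread: the difference between DSS vehicle and water mice was 0.00 ± 1.31 (95% interval -2.81 to 2.82, adjusted p = 0.999, limma), and that between filgotinib and DSS vehicle mice was -0.49 ± 1.31 (adjusted p = 0.846).

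Cyr61, at chr3:145310187-145310246 on the minus strand of mm9, was well above background on 14 arrays. Its levels were -3.39, -3.48, -3.71, -3.17 and -2.88 on water, -2.66, -3.51, -2.22, -3.10 and -1.39 on DSS with vehicle, and -3.01, -3.52, -2.06, -3.36 and -4.32 on DSS with filgotinib. The groups overlapped, and the spread was wider in both DSS groups (SD 0.82 in each) than in water mice (SD 0.32). The difference was 0.75 ± 0.41 for DSS vehicle against water (95% interval -0.12 to 1.62, adjusted p = 0.208, limma) and -0.68 ± 0.41 for filgotinib against DSS vehicle (95% interval -1.55 to 0.19, adjusted p = 0.294). On slide 4 the difference between DSS vehicle and water mice was -0.21 for Cyr61 and -2.37 for Ctgf. Without DSS vehicle mouse 5 this difference was 0.45 for Cyr61 and -0.94 for Ctgf. Ctgf and Cyr61 were both highest in DSS vehicle mouse 5 and filgotinib mouse 3.

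How the genes varied among mice of a group was compared through each mouse's deviation from its group mean, over 28 pairs of genes and 15 mice. No pair passed after adjustment over the 28 pairs. The closest were Anxa1 with Anxa3 (r = 0.82, permutation p = 0.00554, adjusted 0.103; rho = 0.79, p = 0.00613, adjusted 0.0858) and Emp1 with Anxa1 (r = 0.77, permutation p = 0.00738, adjusted 0.103; rho = 0.79, p = 0.00435, adjusted 0.0858). Without the 2 mice farthest from the median of Anxa1 and of Emp1, respectively, r was 0.64 and 0.70, and on scan day 1 it was 0.94 and 0.82 over 10 mice. Ctgf with Cyr61 gave r = 0.72 (permutation p = 0.0129, adjusted 0.120; rho = 0.60, p = 0.0397, adjusted 0.222). It was 0.36 without the 2 mice farthest from the median of Ctgf and 0.46 on scan day 1, so the pooled value rests largely on those mice, while it was 0.81 within the 5 water mice, a group that holds neither. Filgotinib mouse 4 was the highest of its group for 5 of the 8 genes, and for 29.1% of all genes.

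**Figure D3:**
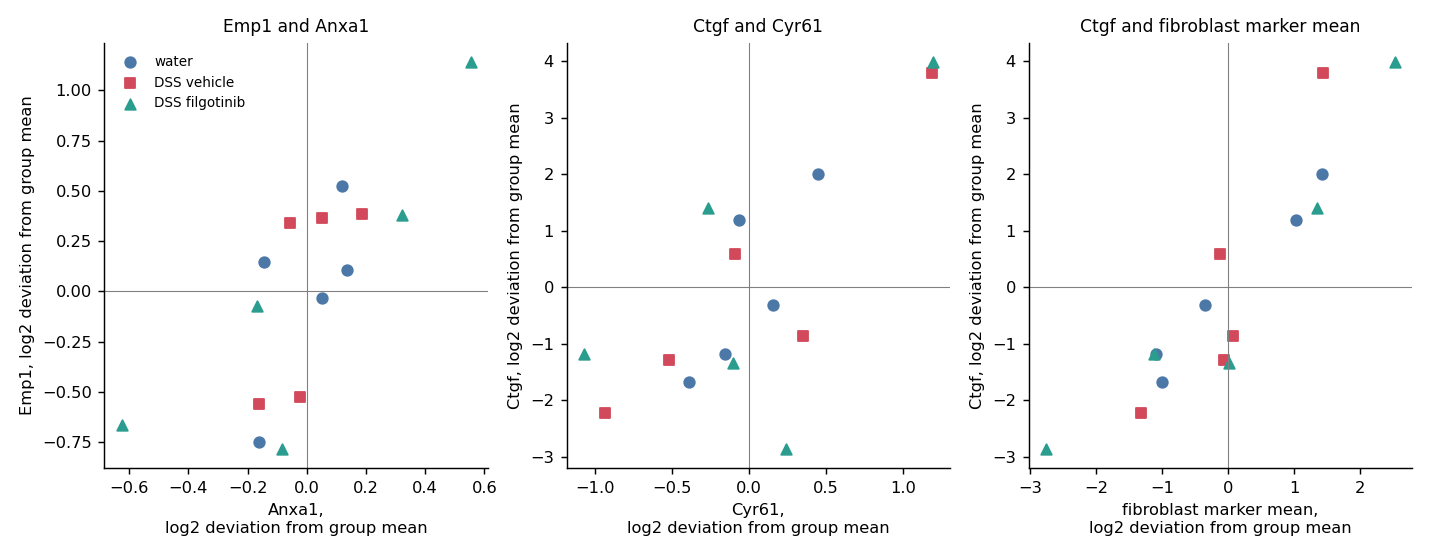
Deviation of each mouse from its group mean in log2 units for Emp1 against Anxa1 (left), Ctgf against Cyr61 (middle) and Ctgf against the mean of 8 fibroblast markers (right); colour and shape give the group. The Ctgf points follow the fibroblast markers in all 3 groups (r = 0.91), while the relation with Cyr61 (r = 0.72) is weaker without the 2 mice at the upper right (0.36).

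The same deviations were set against the mean level of 11 lists of cell type markers, 88 relations in all, of which 4 passed after adjustment by Pearson's r and 4 by Spearman's rho, 3 of them by both. Ctgf followed the fibroblast markers, among them Col1a1, Dcn and Lum (r = 0.91, permutation p adjusted over the 88 relations 0.00088; rho = 0.86, adjusted 0.0284; r = 0.88 without the 2 farthest mice; 0.84 on scan day 1). It followed the endothelial markers as well (r = 0.94, adjusted 0.00396; rho = 0.83, adjusted 0.0284; r = 0.86 without the 2 farthest mice; 0.94 on scan day 1). With the macrophage markers r was 0.89 (adjusted 0.00939; rho = 0.77, adjusted 0.0832; r = 0.78 without the 2 farthest mice). The fibroblast markers' mean log2 level was 0.34, -1.77, -1.69, -1.03 and 0.73 on water, 0.55, -0.65, 0.75, 0.61 and 2.11 on DSS with vehicle, and -3.39, 0.71, 1.89, -0.63 and -1.76 on DSS with filgotinib. It was highest in DSS vehicle mouse 5 and filgotinib mouse 3, and lowest in filgotinib mouse 1, as was Ctgf. The 8 fibroblast markers summed to 3.96 to 25.6 in water, 11.7 to 65.8 in DSS vehicle and 1.81 to 53.3 in filgotinib mice, with 0 of 8 called in any comparison by limma. At an unadjusted p under 0.05, 2 of the 8 were higher in DSS vehicle than in water mice and 2 were lower under filgotinib. The 6 endothelial markers summed to 1.60 to 2.10, 1.48 to 4.15 and 1.57 to 3.48, and the 8 macrophage markers to 75.9 to 84.4, 77.1 to 111 and 66.0 to 88.3, in the same order of groups. Ctgf was well above background on 8 of the 15 arrays. Of the endothelial markers, Cldn5 was so on 5, Cdh5 on 8 and the other measured ones on 13 or 15. The Ctgf relations therefore include background readings. The part of fibroblasts, endothelium and macrophages in the Ctgf values was not tested.

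Anxa3 followed the 5 measured skeletal muscle markers (r = 0.78, adjusted 0.04; rho = 0.81, adjusted 0.0284; r = 0.66 without the 2 farthest mice; 0.81 on scan day 1), a list whose defining gene Ckm was not well above background on any array. Within the 5 mice of a group this r was 0.94 on water, 0.21 on DSS with vehicle and 0.88 on DSS with filgotinib. For Emp1 and Anxa1 with the same markers r was 0.70 and 0.66, and neither passed (adjusted 0.0902 and 0.0996). Within groups, r with these markers was 0.85, 0.18 and 0.84 for Emp1 and 0.24, 0.34 and 0.99 for Anxa1, in the same order. These markers summed to 0.492 to 0.936 in water, 1.80 to 3.51 in DSS vehicle and 0.832 to 3.29 in filgotinib mice, and within the list Acta1, a skeletal muscle actin, rose (log2 fold change 3.12, adjusted p = 0.00104, limma) and Mylpf, a fast muscle myosin light chain, fell (-0.29, adjusted p = 0.0297) in DSS vehicle mice. Acta1 levels ran from -2.66 in water mouse 2 to 1.66 in DSS vehicle mouse 3. Mylpf levels ran only from -3.15 in DSS vehicle mouse 1 to -2.40 in filgotinib mouse 2. The mean and sum of this list can therefore rest largely on Acta1, and no r without Acta1 is given here. The part of these markers in the Anxa3 values was not tested. Msln followed the 2 measured mesothelial markers by rank (rho = 0.83, adjusted 0.0284) but not by Pearson's r (0.68, adjusted 0.0902). Of these markers, Upk1b was well above background on at most 12 of the 15 arrays and Wt1 on at most 8, so the relation includes background readings.

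Other cell type markers also differed between the groups. Among mice of a group, no relation of Emp1, Anxa1 or Anxa3 with the epithelial, squamous, follicle or neutrophil markers passed. The largest r was 0.54, for Emp1 with the follicle markers (permutation p adjusted over the 88 relations 0.515). In DSS vehicle against water mice, 7 of 11 epithelial markers rose, by 0.25 to 0.52 on the log2 scale, led by Car1, and none fell. Of 6 squamous markers measured, Krt14 (1.90, adjusted p = 0.00148, limma) and Dsg3 (1.12, adjusted p = 0.0184) rose, while Krt4, Sprr3 and Ivl were not well above background. The 6 summed to 9.59 to 10.8 in water, 11.48 to 15.7 in DSS vehicle and 9.66 to 13.4 in filgotinib mice. Of 5 follicle markers measured 4 rose, led by Cxcl13 and Ms4a1 (both 2.09), and of 5 neutrophil markers measured S100a9 (3.85) and Ly6g (0.60) rose. At an unadjusted p under 0.05 in limma, 3 of the 5 neutrophil markers were higher and 1 was lower. Cd79a and Madcam1 of the follicle list and Cxcr2, Retnlg and Ngp of the neutrophil list were not measured. Under filgotinib against DSS vehicle, where Emp1 fell, 0 of 11 epithelial markers were called (0 also at an unadjusted p under 0.05 in limma), while S100a9 (-3.12), Acta1 (-1.65) and Cxcl13 (-1.32) fell and Mylpf, of the same list as Acta1, rose (0.42). S100a9 was well above background in 3 water, 5 DSS vehicle and 2 filgotinib mice. The part of these cells in the changes of Emp1, Anxa1 and Anxa3 was not tested.

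Among 22 measured components of the Hippo pathway, 3 rose and 4 fell in DSS vehicle mice, with a median log2 fold change of 0.06 against 0.05 over all genes. Over all genes 19.2% were called in this comparison. Tead1 (0.52 ± 0.11, adjusted p = 0.00526, limma) and Tead4 (0.62 ± 0.12, adjusted p = 0.00418) rose, and Tead2 fell (-1.20 ± 0.26, adjusted p = 0.00627), all with no overlap between the groups. Of all genes, 9.84% were higher in DSS vehicle mice with no overlap, and the share that was lower with no overlap is not given here. Nf2, which encodes the upstream regulator merlin, rose by 0.28. Vgll4, whose product competes with YAP for TEADs, fell by 0.54, Map4k4, a kinase acting on LATS, fell by 0.55, and Amot, whose product binds YAP, fell by 0.39. Yap1 itself differed by 0.03 ± 0.09 (adjusted p = 0.856), Wwtr1 by 1.00 ± 0.79 (adjusted p = 0.393) and Tead3 by -0.15 ± 0.12 (adjusted p = 0.4).

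Under filgotinib 1 of the 22 components was called against DSS vehicle, Amotl2, an angiomotin that binds YAP, which fell by 0.39 (adjusted p = 0.012, limma). Over all genes 11.3% were called in this comparison. Yap1 differed by 0.02, Wwtr1 by -1.02 (adjusted p = 0.424), Tead1 by -0.16, Tead2 by 0.80 (adjusted p = 0.0574), Tead3 by 0.06 and Tead4 by -0.29 (adjusted p = 0.14). Wwtr1 spread within groups like Ctgf, from -4.32 in filgotinib mouse 1 to 0.28 in filgotinib mouse 3, with 0.48 in DSS vehicle mouse 5. Against water, Tead1 (0.36) and Sav1 (0.30), the scaffold of the Hippo kinases, rose in filgotinib mice, and Vgll4 (-0.59) and Map4k4 (-0.51) fell.

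**Figure D4:**
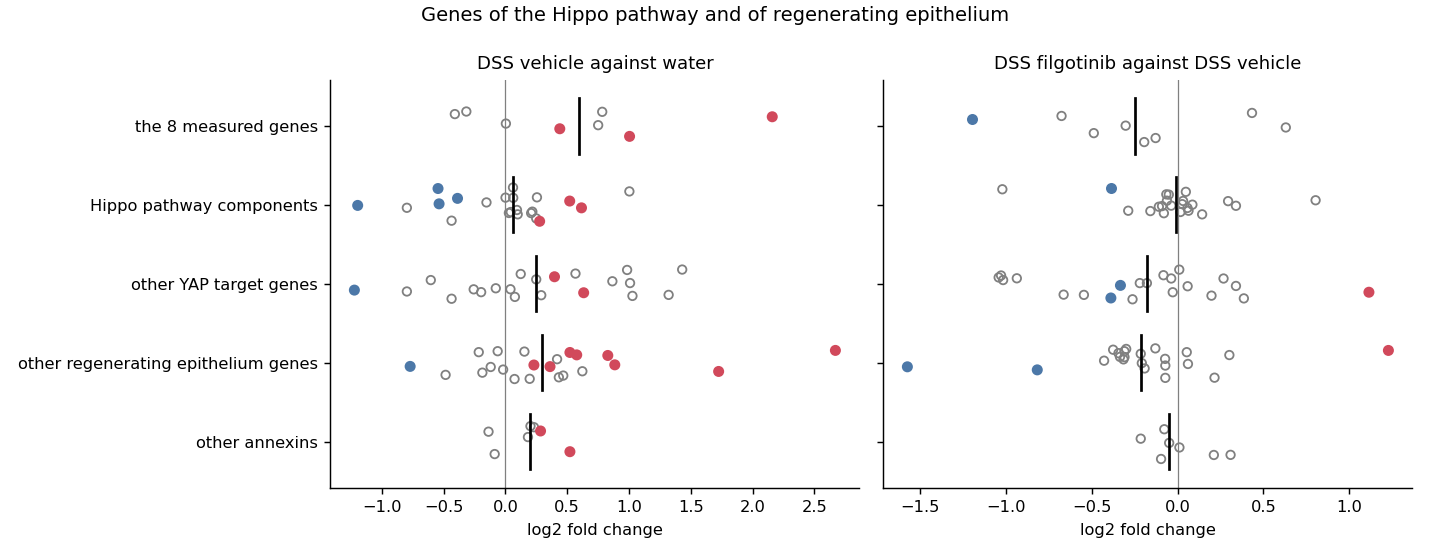
Log2 fold change (horizontal axis) of each measured gene of 5 lists (rows) for DSS vehicle against water (left) and DSS filgotinib against DSS vehicle (right); filled points have an adjusted p under 0.05 (red higher, blue lower) and the black line is the list's median. The Hippo pathway components lie on both sides of 0 with a median of 0.06 on the left, and the regenerating epithelium genes reach furthest to the right with Ly6a at 2.67.

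Of 21 other YAP target genes measured, 2 rose and 1 fell in DSS vehicle mice, with a median of 0.25, where 19.2% of all genes were called. Myof, which encodes the membrane repair protein myoferlin, rose by 0.63, and Dock5, an activator of Rac, rose by 0.40. Fjx1 fell (-1.22 ± 0.14, adjusted p = 0.00015, limma). Under filgotinib against DSS vehicle, Fjx1 rose by 1.11 (adjusted p = 0.000706, limma), and Dock5 (-0.33) and Amotl2 (-0.39) fell. Each did so with no overlap between the groups, but the share of all genes without overlap in this comparison is not given here. Over all genes 11.3% were called, and Amotl2 is the Hippo component named above.

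Of 24 other genes of regenerating epithelium, 22 were measured, and 8 rose and 1 fell in DSS vehicle mice, with a median of 0.30. Over all genes 19.2% were called in this comparison, 10.8% as higher. Ly6a, a surface protein of regenerating colon epithelium that endothelium and lymphocytes also carry, rose 6.37-fold (log2 fold change 2.67 ± 0.37, adjusted p = 0.000467, limma). The water group read 3.22, 2.56, 3.36, 2.93 and 2.29, the DSS vehicle group 6.02, 5.86, 5.12, 5.23 and 5.49, and the filgotinib group 3.93, 4.14, 3.56, 5.34 and 2.86. All DSS vehicle mice lay above all water mice, and filgotinib mouse 4 was again within the DSS vehicle range. Ly6d (1.73) and the urokinase receptor gene Plaur (0.89) rose as well, and the tight junction gene Cldn4 fell by 0.77. Spp1 was not well above background.

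Under filgotinib against DSS vehicle, 2 of the 22 fell, Ly6a (-1.58 ± 0.37, adjusted p = 0.0159, limma) and Plaur (-0.82 ± 0.23, adjusted p = 0.0343), and 1 rose, the tubulin gene Tubb6 (1.23 ± 0.24, adjusted p = 0.0072). Over all genes 11.3% were called in this comparison, 4.53% as lower. The median over the 22 was -0.21, against 0.00 over all genes.

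Relatives of the 9 genes were followed too. Of 7 other annexin genes measured, Anxa2 (0.52, adjusted p = 0.00756, limma) and Anxa7 (0.28, adjusted p = 0.0214) rose in DSS vehicle mice, and none was called under filgotinib in either comparison (at an unadjusted p under 0.05 in limma, 1 was higher against DSS vehicle and 4 against water). Anxa2 is also counted among the regenerating epithelium genes above. Fpr2, a receptor of annexin A1, rose by 0.60 (adjusted p = 0.0123, limma), while Fpr1 was not well above background. Among CCN and EMP relatives, Ccn4 was called higher in DSS vehicle than in water mice (adjusted p = 0.00491) and lower under filgotinib (adjusted p = 0.0301). It was well above background in 1 of 5 water, 5 of 5 DSS vehicle and 2 of 5 filgotinib mice, so it passed the filter through the group where it was high, and most other readings are background. Its levels ran from -6.71 to -4.55, from -3.37 to -0.39 and from -6.54 to -3.32 in these groups. Ccn3 rose by 1.60 in DSS vehicle and by 2.09 in filgotinib mice against water. Emp2 moved opposite to Emp1, falling by 0.71 in DSS vehicle mice (adjusted p = 0.0174) and rising by 0.67 under filgotinib (adjusted p = 0.0339).

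For each measured gene, up to 3 genes with the nearest pattern over the 15 mice are given, by the root mean square difference of gene-centred log2 levels. For Emp1 these were Clca4b (0.37), Cxcl13 (0.42) and Phf11a (0.43). For Anxa1 they were Serpinb5 (0.14), Pira6 (0.20) and Unc13d (0.20). Ctgf was nearest to Lum (0.42), Ogn (0.69) and Pid1 (0.76), and Cyr61 to Lef1 (0.36), Faxc (0.37) and Pdgfb (0.37). Anxa3 was nearest to Olfr1368 (0.08), Erp27 (0.09) and Actr3 (0.09), Clu to Tex33 (0.23), Cda (0.25) and Ctsl (0.25), Msln to Ccl9 (0.16), Fabp5 (0.21) and 1 unnamed transcript, and Anxa8 to 1 unnamed transcript and Gadd45g (0.30). The measure favours genes of small spread where the member itself varies little, as Anxa3 does (SD 0.25 over the 15 mice). Clca4b, Phf11a, Pira6 and Olfr1368 belong to families of close copies, and their probes may read more than 1 gene.

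**Figure D5:**
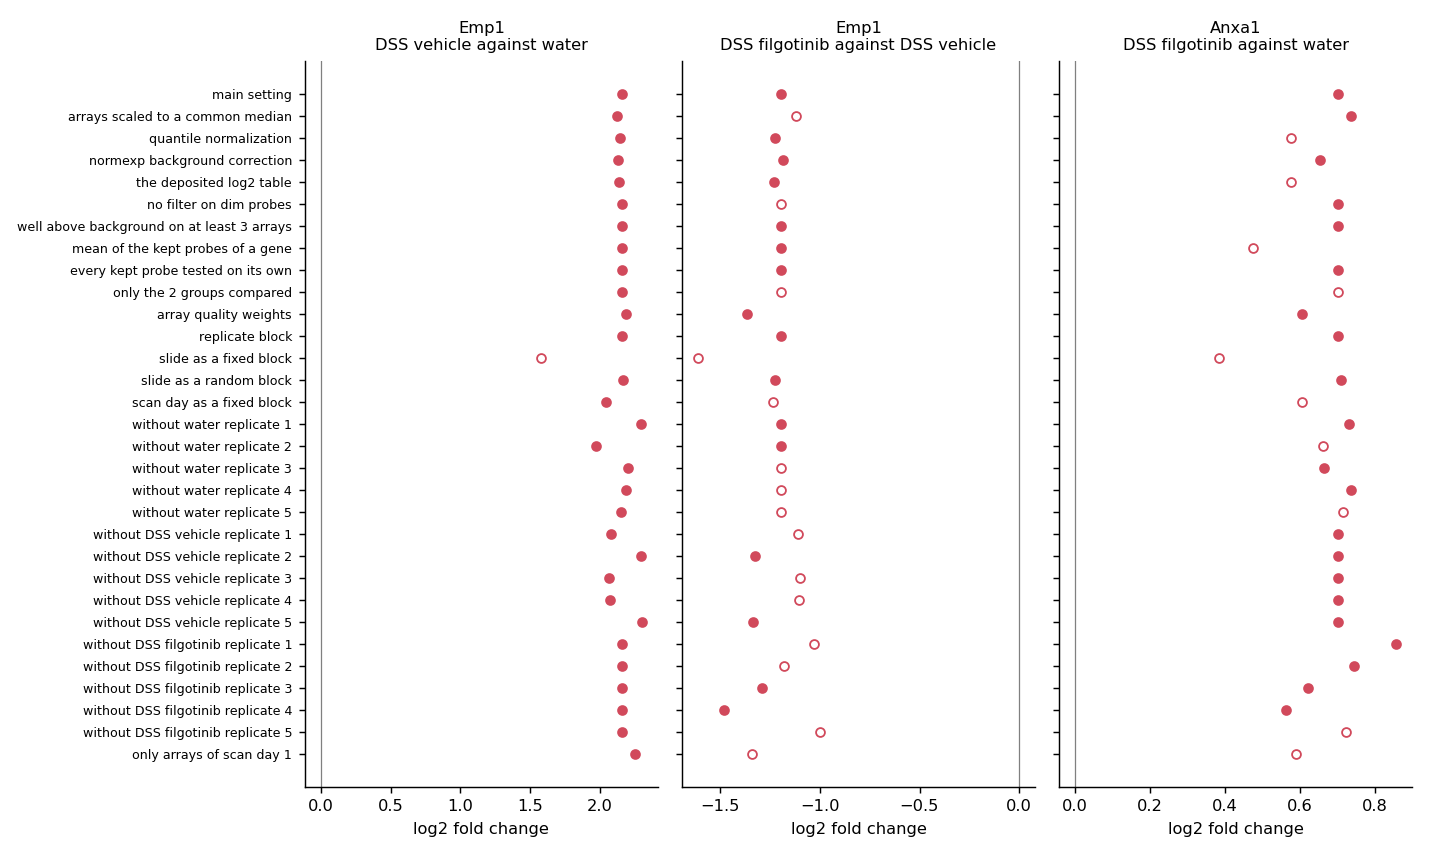
Log2 fold change (horizontal axis) of Emp1 in DSS vehicle against water (left) and in DSS filgotinib against DSS vehicle (middle) and of Anxa1 in DSS filgotinib against water (right) under each way of processing and with each mouse left out (rows); filled points have an adjusted p under 0.05. Emp1 in DSS vehicle mice stays between 1.57 and 2.30 and is filled in all rows but the fixed slide block, while the other changes keep their sign and are filled in only some rows; Anxa1 has an adjusted p of 0.731 with the fixed slide block.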

How the data were processed

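The scanner files give, per the file headers, an intensity per spot from which Agilent Feature Extraction 11.5.1.1 had subtracted background and removed trends across the array; arrays were not yet adjusted to each other. The authors also deposited a table of log2 values for 32349 probes, whose normalization and filter are not stated in the sources used here. Per the submitters' processing notes, limma was used as well. The 75th percentile of an array's log2 processed signals was subtracted from each of its values. Control spots and 101 probes with outlier marks were left out. Probes well above background on at least 5 arrays were kept, and the brightest kept probe stood for its gene. Symbols came from the RefSeq table of GRCm38.p6 through accessions where it held them, otherwise from the files.

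The groups were tested in R 4.3.3 with limma 3.58.1 (lmFit, then eBayes), in 1 two-sided fit over 15 arrays with Benjamini-Hochberg adjustment over 22012 genes; the code was tested on simulated data. Correlations used 100000 permutations of the deviations among the mice within each group. Figures used matplotlib 3.10.9 with Python 3.11.15. Alternatives are given in the closing section. Named genes were all 9 genes, up to 4 called genes per direction from each list, Yap1, Wwtr1, the Tead genes and the 3 nearest genes of each member; Epcam, Vil1, Col1a1, Dcn and Lum are named only as examples of their lists. Sav1 and genes named as not measured were added after their values were seen. The members and lists were chosen with earlier results of these data known. Some lists share genes. Amotl2, Lats2 and Ptpn14 are in both the Hippo and the YAP target list. Anxa2 is in both the regenerating epithelium and the annexin list, and S100a11 in the former and the list of annexin partners. A few genes that this rule names are not reported here.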

Additional observations from a re-analysis of the deposited data

How the results depend on the processing

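Each result was recomputed under 14 planned settings, with each of the 15 mice left out, and on the arrays of scan day 1 alone, a setting chosen after seeing the data. For DSS vehicle against water, 3 of the 8 genes were called; leaving out a mouse gave 3 to 4, slides as a fixed block 0 and scan day 1 alone 1 (Emp1). For DSS filgotinib against DSS vehicle, 1 was called (Emp1); leaving out a mouse gave 0 to 1, and 0 were called with arrays scaled to a common median, no filter on dim probes, only the 2 groups compared, slides or scan days as a fixed block, and scan day 1 alone. For DSS filgotinib against water, 1 was called (Anxa1); leaving out a mouse gave 0 to 1, and 0 were called with quantile normalization, the deposited table, the mean of a gene's probes, only the 2 groups compared, slides or scan days as a fixed block, and scan day 1 alone. Without the filter on dim probes it was 2, the added gene being Ankrd1, whose readings are background. The causes were not tested, but the fixed slide block rests on slide 4 or slide 2 alone for the first 2 comparisons, and the smaller fits have fewer mice. Replicate numbers did not pair the mice (correlations of deviations from -0.52 to 0.53), and the replicate block left the calls at 3, 1 and 1. Anxa8 in DSS vehicle mice passed with normexp (adjusted p = 0.0394), the deposited table (0.0499) and array weights (0.0467). Signs reversed for Mylpf in DSS vehicle against water with normexp (0.0132), and in DSS filgotinib against water for Ly6d with the fixed slide block (-0.44) and Krt19 in the deposited table (-0.0376). Differences of the members that were not called changed sign as well. Apart from leaving out a mouse, Ctgf in DSS vehicle against water ran from -2.37 to 1.14. In DSS filgotinib against water, Emp1 ran from -0.04 to 1.00, Msln from -0.61 to 0.51 and Cyr61 from -1.09 to 0.30. Over all genes, the fixed slide block called 84, 437 and 2 genes in the 3 comparisons, in place of 4220, 2492 and 2164. Ctgf was well above background on 8 of 15 arrays, and its other readings are background.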
